A study of Homo sapiens with 20 samples.

Results

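NEAT1 and MALAT1 are a pair of abundant nuclear long non-coding RNAs (lncRNAs), and both were examined here in NGP cells, a human neuroblastoma cell line, treated with nutlin-3 or with vehicle. The members were the 2 genes that carry these symbols in GENCODE release 44, out of 27697 mRNA and lncRNA genes tested, of which 10346 were lncRNAs. They were quantified on 21 transcript models, 5 of NEAT1 and 16 of MALAT1, out of 198968 transcripts in the deposited files. The NGP nutlin data hold 10 biological replicates given nutlin-3, as an 8 µM racemic mixture, and 10 given ethanol as vehicle, all grown in culture from 1 cell line. Poly(A) RNA was sequenced with a stranded, paired-end protocol.

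Nutlin-3 blocks the binding of MDM2 to p53, which releases p53 from degradation in cells with an intact p53 pathway. NEAT1 is the scaffold of paraspeckles, nuclear bodies that assemble around its long form together with RNA-binding proteins. Its short form shares the first part of the long form and ends at a polyadenylation site. The 3′ end of the long form is made by RNase P cleavage and folds into a triple helix. MALAT1 is transcribed from the same stretch of the chromosome, gathers in nuclear speckles where splicing factors are stored, and has a 3′ end of the same kind. Neither the long form of NEAT1 nor processed MALAT1 carries an ordinary poly(A) tail, so that poly(A) libraries report the part of these RNAs that was captured.

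Both genes lie on the plus strand of chromosome 11 (GRCh38), NEAT1 (ENSG00000245532.11) at 65422774 to 65445540 and MALAT1 (ENSG00000251562.11) at 65497640 to 65508073, with 52099 bases between them. The 3′ ends are printed first because they are a sequence feature that the 2 RNAs share and that stands in place of a poly(A) tail. Capitals mark the U-rich motif TTTTGCTTTT and the A-rich motif AAAAGCAAAA, which is the same word on the other strand.
NEAT1 long form, last 100 bases, chr11:65445441-65445540, plus strand: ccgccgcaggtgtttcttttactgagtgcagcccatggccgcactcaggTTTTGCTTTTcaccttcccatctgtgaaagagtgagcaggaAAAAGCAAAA
MALAT1, 100 bases up to the A-rich motif, chr11:65506017-65506116, plus strand: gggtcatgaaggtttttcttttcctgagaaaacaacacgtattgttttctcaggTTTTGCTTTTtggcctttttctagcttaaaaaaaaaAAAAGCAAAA
Each 100-base stretch held the U-rich motif once and closed with the A-rich motif. The U-rich motif was found in the last 100 bases of 36 of 27695 genes (0.13%), taking the longest annotated transcript of each gene tested and the sense strand. The A-rich motif was found in 43 (0.155%), and the only gene with both was NEAT1. MALAT1 was not among them because its annotated model runs past the A-rich motif, to 65508073.

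RefSeq promoter windows, from 250 bases before to 50 after a start, were at hand for MALAT1 (2 windows, GRCh38.p14) and are shown because its annotated models start in more than 1 place. NEAT1 had no entry. Capitals mark the GC box GGGCGG and the TATA box TATAAA, each searched on both strands.
MALAT1 upstream window, chr11:65497488-65497787, plus strand: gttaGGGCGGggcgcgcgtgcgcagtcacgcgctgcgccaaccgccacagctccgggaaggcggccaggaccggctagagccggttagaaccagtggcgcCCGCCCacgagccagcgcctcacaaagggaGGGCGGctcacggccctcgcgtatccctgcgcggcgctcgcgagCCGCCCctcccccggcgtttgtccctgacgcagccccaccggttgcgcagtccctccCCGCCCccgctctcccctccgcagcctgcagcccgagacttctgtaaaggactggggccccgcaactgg
MALAT1 downstream window, chr11:65498795-65499094, plus strand: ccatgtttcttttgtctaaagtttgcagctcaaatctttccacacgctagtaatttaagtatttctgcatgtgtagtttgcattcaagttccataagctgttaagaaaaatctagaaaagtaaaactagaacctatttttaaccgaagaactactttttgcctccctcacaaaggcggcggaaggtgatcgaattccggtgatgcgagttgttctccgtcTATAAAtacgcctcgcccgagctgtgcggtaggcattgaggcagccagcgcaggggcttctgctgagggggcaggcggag
The upstream window was 73.7% G and C and held 5 GC boxes, 2 on the plus and 3 on the minus strand, and no TATA box. The downstream window was 46% G and C and held 1 TATA box and no GC box. Over all 35116 RefSeq windows the median was 58.7% G and C, 45.0% held a GC box and 11.5% a TATA box. In GENCODE release 44 the longest model, ENST00000534336, starts in the upstream window, at 65497640. Of the 4 models that start in the downstream window, ENST00000508832 and ENST00000544868, both at 65499042, had the most counts.

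The estimated counts summed to 14455477 to 19532971 read pairs per vehicle sample and to 15078052 to 17442896 per nutlin sample, and no 2 samples held identical values. MDM2, which p53 activates and whose product nutlin-3 binds, served as the check of the treatment labels. It stood at 199 to 290 CPM (counts scaled to library size by TMM) in vehicle and at 4797 to 6005 CPM in nutlin. Among the neuroblastoma markers PHOX2A, HAND2, GATA3, ISL1, DBH, TH and MYCN, the lowest mean was 136 CPM, that of DBH in nutlin. PTPRC, PECAM1, EPCAM, COL1A2 and GFAP, markers of other cell types, had means of at most 1.49 CPM in either condition. COL1A1, a collagen gene listed with COL1A2 as a fibroblast marker, was higher, with a mean of 8.91 CPM in vehicle and 35.2 CPM in nutlin. Its LFC was 1.98 (SE 0.074).

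Both lncRNAs were more abundant after nutlin. NEAT1 stood at 153 CPM in the lowest vehicle sample, 182 CPM at the median and 192 CPM in the highest. In the nutlin samples it stood at 415, 467 and 527 CPM. The lowest nutlin sample was thus above the highest vehicle sample. The mean rose from 181 ± 10.8 CPM (SD, n = 10) to 463 ± 39.0 CPM (SD, n = 10). The log2 fold-change (LFC) was 1.36 with a standard error (SE) of 0.045, a 2.56-fold rise with a 95% interval of 2.41 to 2.73 (edgeR quasi-likelihood test, Benjamini-Hochberg adjusted p = 2.9e-21).

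MALAT1 stood at 98.0 CPM in the lowest vehicle sample, 110 CPM at the median and 125 CPM in the highest. In the nutlin samples it stood at 307, 327 and 355 CPM, again without overlap between conditions. The mean rose from 109 ± 9.52 CPM (SD, n = 10) to 331 ± 16.7 CPM (SD, n = 10). The LFC was 1.60 (SE 0.044), a 3.03-fold rise with a 95% interval of 2.85 to 3.21 (edgeR, adjusted p = 2.5e-23). Both members were thus significantly differentially expressed (SDE) at 5% FDR, where 32.3% of the genes tested were called up and 26.5% down.

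**Figure D1:**
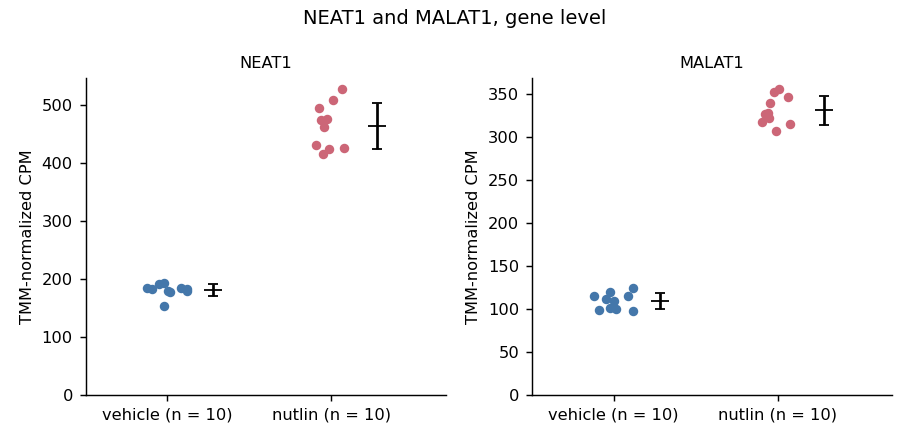
TMM-normalized CPM of NEAT1 and MALAT1 at gene level (y axes) in the 10 vehicle and 10 nutlin samples (points), with mean and SD beside them. Every nutlin sample lies above every vehicle sample for both genes, with means of 181 and 463 CPM for NEAT1 and 109 and 331 CPM for MALAT1.

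As raw shares of a library, the changes were larger. NEAT1 took 0.0156% ± 0.0013 (SD, n = 10) of all estimated counts in vehicle and 0.0454% ± 0.0047 (SD, n = 10) in nutlin, 2.91 times as much. MALAT1 took 0.00945% ± 0.0010 (SD, n = 10) and 0.0324% ± 0.0021 (SD, n = 10), 3.43 times as much. For both genes the permutation p was 2e-05 (two-sided, 100000 resamples, adjusted over the 2 genes), the smallest that this test can give. Among lncRNA counts alone the rises were 1.77 and 2.09 times, respectively. All of these values are relative to the rest of a library: more RNA per cell, and less of the other RNAs, cannot be told apart.

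Levels of different genes were compared per length, as TPM (counts scaled by effective length and library size) summed over the models of a gene. NEAT1 had 74.8 ± 10.2 TPM (SD, n = 10) in vehicle and 175 ± 24.4 TPM (SD, n = 10) in nutlin, and its place by TPM among the 10346 lncRNAs tested moved from 50 to 30. MALAT1 had 25.9 ± 4.93 TPM (SD, n = 10) and 82.1 ± 9.71 TPM (SD, n = 10), and moved from place 145 to place 51. NEAT1 was therefore the more abundant member in both conditions on this scale. By the size of the LFC, MALAT1 was 32nd and NEAT1 45th of the 437 lncRNAs that averaged 10 CPM or more, of which 258 were called up and 93 down.

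MALAT1 rose more than NEAT1. The log2 ratio of NEAT1 to MALAT1 estimated counts was 0.73 ± 0.11 (SD, n = 10) in vehicle and 0.48 ± 0.077 (SD, n = 10) in nutlin, a difference of -0.24 (two-sided permutation test, p = 6e-05). It ran from 0.55 to 0.88 in vehicle and from 0.36 to 0.60 in nutlin, and 8 of 10 nutlin samples were below the lowest vehicle sample. Per length, in TPM, the log2 ratio fell by 0.46, from 1.54 ± 0.17 to 1.08 ± 0.12 (SD, n = 10 each, permutation p = 2e-05), without overlap. The TPM values rest largely on models that are shorter in the files than in GENCODE release 44. ENST00000544868, a MALAT1 model of 480 bases in the files, gave 26.4 of the 82.1 TPM of MALAT1 in nutlin and 0.52 of 25.9 in vehicle. The short form of NEAT1, of 1811 bases in the files, gave 43.0 of 74.8 TPM in vehicle and 110 of 175 TPM in nutlin. The NEAT1 model ENST00000616315, of 483 bases in the files, gave 26.7 TPM in vehicle and 52.4 TPM in nutlin.

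The models of both forms of NEAT1 rose. The long form, ENST00000501122 of 22743 bases, had an estimated count of 1292 in the lowest vehicle sample, 1533 at the median and 1957 in the highest. In nutlin the same values were 3605, 4279 and 4910, so that the conditions were apart by more than the range of either. Its transcript-level LFC was 1.37 (SE 0.053, edgeR adjusted p = 3.3e-15).

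The short form, ENST00000499732, had estimated counts of 806, 1046 and 1206 in vehicle and of 2436, 2680 and 3126 in nutlin, given as lowest, median and highest. Its LFC was 1.36 (SE 0.051, edgeR adjusted p = 2.2e-15), and its conditions did not overlap either. Another NEAT1 model, ENST00000616315, is 483 bases long in the files and in GENCODE release 44 lies within the span of both forms. It ran from 77.7 to 179 counts in vehicle and from 175 to 360 in nutlin, which overlap, with an LFC of 0.99 (SE 0.13, adjusted p = 4.4e-06). The other 2 NEAT1 models, ENST00000601801 and ENST00000612303, had means of at most 1.30 counts in either condition and were not called.

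The long form held 57.7% ± 1.66 (SD, n = 10) of NEAT1 estimated counts in vehicle and 58.4% ± 1.51 (SD, n = 10) in nutlin. The ranges were 54.5% to 60.1% and 56.0% to 60.3%, and the difference of 0.70 percentage points did not pass the two-sided permutation test (p = 0.337). In TPM, where each model is divided by its effective length, the long form held 6.48% ± 0.41 and 7.10% ± 0.36 (SD, n = 10 each). This difference of 0.62 percentage points passed (permutation p = 0.00168). Mean TPM in vehicle and nutlin was 4.83 and 12.4 for the long form and 43.0 and 110 for the short form. For the internal model ENST00000616315 it was 26.7 and 52.4. The TPM share without the internal model was not tested. With the internal model left out, the long form held 60.5% and 60.6% of the counts on long and short models (permutation p = 0.913).

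The split between forms depends on the models used. The short form is 1811 bases long in the files and 3441 bases in GENCODE release 44, while the long form has the same length in both. Reads from the part of the short form that the files' model lacks could be assigned to the long model alone, so that its share is a share of models and not a molar share of the forms. For the same reason, the rise of the long model is not a separate measure of the long form.

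**Figure D2:**
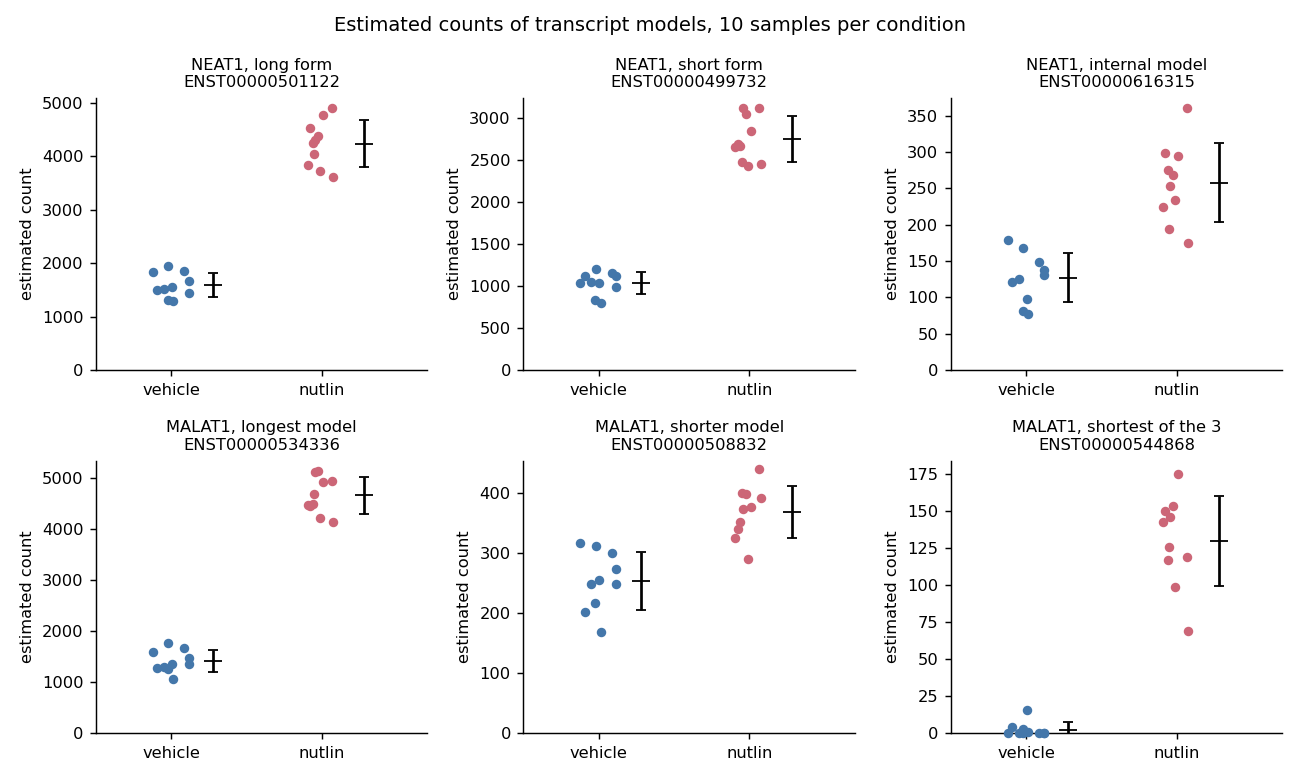
Estimated counts (y axes) of 6 transcript models in the 10 vehicle and 10 nutlin samples (points), with mean and SD beside them: 3 models of NEAT1 in the top row and 3 of MALAT1 in the bottom row. The models of the long and short NEAT1 forms rose from means of 1593 and 1036 to 4236 and 2753 counts, while ENST00000544868 of MALAT1 was near 0 in vehicle.

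MALAT1 models differed more among themselves. Its longest model, ENST00000534336 of 8708 bases in the files, ran from 1055 to 1765 counts in vehicle, with a median of 1356, and from 4140 to 5138 counts in nutlin, with a median of 4590. The conditions did not overlap and the LFC was 1.69 (SE 0.047, edgeR adjusted p = 1.1e-17). The model ENST00000508832, of 1519 bases in the files, ran from 169 to 316 counts in vehicle and from 291 to 441 in nutlin. These ranges overlap, and the LFC was 0.50 (SE 0.082, adjusted p = 5.2e-05).

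ENST00000544868, of 480 bases in the files, was above 0 in 4 of 10 vehicle samples, with a highest estimated count of 15.6 and a median of 0. In nutlin it was above 0 in 10 of 10 samples, with 68.9, 134 and 175 counts as lowest, median and highest. Its fitted LFC was 5.68 (SE 0.63, adjusted p = 2.4e-07), a value that depends on the prior count since the vehicle samples are near 0. ENST00000619449 was at 0 in all vehicle samples and above 0 in 6 of 10 nutlin samples, with a highest count of 38.9, and did not meet the minimum of 1 count per condition for a test. The remaining 12 MALAT1 models had means of at most 2.58 counts in either condition. Of the 11 member transcripts tested, 6 were called, all of them up, where 12.1% of the 132618 transcripts tested were called up.

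The make-up of MALAT1 counts therefore moved. ENST00000534336 held 84.4% ± 1.16 (SD, n = 10) of MALAT1 counts in vehicle and 90.1% ± 0.54 (SD, n = 10) in nutlin. ENST00000508832 held 15.1% ± 0.93 in vehicle and 7.14% ± 0.70 in nutlin (SD, n = 10 each), and ENST00000544868 held 0.147% ± 0.30 and 2.48% ± 0.49 (SD, n = 10 each). None of the 3 shares overlapped between conditions, and each gave a permutation p of 2e-05 (two-sided, adjusted over the 3 models), the smallest possible. These 3 shares were chosen for a test after their counts had been seen, as those of models averaging 10 counts or more over all samples. ENST00000544868, with means of 2.29 counts in vehicle and 129 in nutlin, reached that average through nutlin alone. The difference in its share was thus partly set by the choice, and its p is no independent support. ENST00000508832 and ENST00000544868 share an annotated start in the downstream promoter window and changed in opposite directions as shares, both of them having risen in counts. The LFC of ENST00000534336, whose annotated start is in the upstream window, lay between theirs. The same limit holds as for NEAT1: the downstream pair is 6168 and 2505 bases long in GENCODE release 44, and ENST00000534336 is 10434 bases long. The start and extent of all 3 models in the files may therefore differ, and their counts are not a measure of output from either window. The strand setting of the quantification is not given in the sources used here, and reads of TALAM1, an RNA antisense to MALAT1 for which the files hold no matched model, were not told apart.

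**Figure D3:**
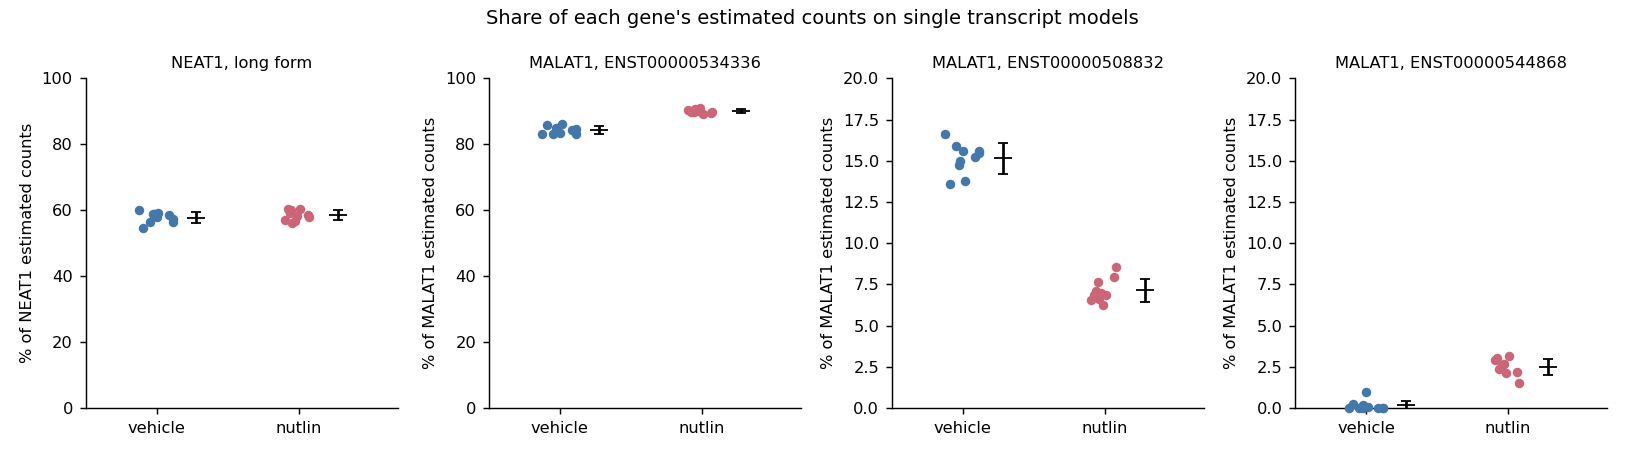
Percentage of a gene's estimated counts on single transcript models (y axes) in the 10 vehicle and 10 nutlin samples (points), with mean and SD beside them. The long-form share of NEAT1 stayed at 57.7% and 58.4%, while ENST00000508832 of MALAT1 went from 15.1% to 7.14%.

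The pair was compared across samples within each condition. Across the 10 nutlin samples, log2 CPM of the pair correlated with Pearson's r = 0.79 (permutation p = 0.00846, adjusted over the 2 conditions p = 0.0169) and Spearman's rho = 0.79 (permutation p = 0.00884, adjusted p = 0.0177). Without the 2 samples farthest from the NEAT1 median, r was 0.81 (n = 8, permutation p = 0.0181). Across the 10 vehicle samples r was 0.51 and did not pass (permutation p = 0.11), while rho was 0.70 and passed (permutation p = 0.0298, adjusted p = 0.0298). Without the 2 farthest samples, r in vehicle was 0.49 (n = 8, permutation p = 0.214). The rho of these 8 vehicle samples was 0.67 and did not pass (permutation p = 0.0826). Vehicle replicate 10 was low in NEAT1, at 153 CPM against 178 CPM in the next lowest, and nutlin replicates 1 and 2 were highest in NEAT1. The 2 correlations were not tested against each other. Both genes were measured in the same libraries, so that library quality and scaling are shared.

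**Figure D4:**
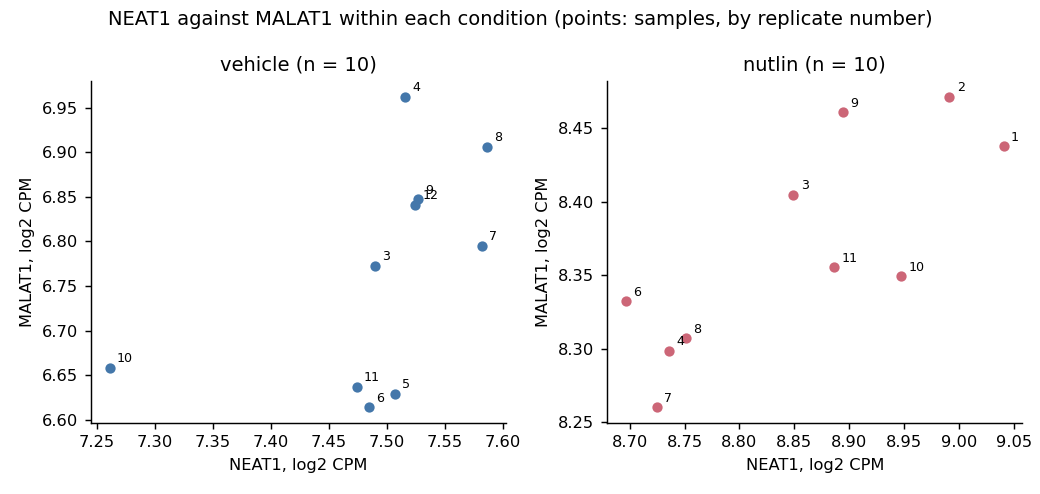
Log2 CPM of NEAT1 (x axis) against log2 CPM of MALAT1 (y axis), with 1 point per sample and its replicate number, vehicle on the left and nutlin on the right; axes do not start at 0. The nutlin samples rise together (r = 0.79), and vehicle replicate 10 lies far to the left of the other vehicle samples.

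The genes most like each member were sought among 9876 other genes that averaged 10 CPM or more, by Pearson's r of deviations from the condition mean over 20 samples, as a description. For NEAT1 they were GXYLT1 (r = 0.79), NPIPB3 (0.76), the lncRNA ENSG00000274292 (0.75), MBD6 (0.74) and CPEB2 (0.73). NPIPB3 belongs to a family of near-identical copies, and its counts are uncertain. CPEB2, an RNA-binding protein, also rose under nutlin, with an LFC of 2.30 (SE 0.10, edgeR adjusted p = 2.6e-18). For MALAT1 they were C6orf120 (r = 0.89), PDE3B (0.87), GTF2A1 (0.86), DNAJC10 (0.86) and ZFP37 (0.85). Of these, PDE3B and GTF2A1 fell under nutlin, with LFCs of -0.70 (SE 0.073, adjusted p = 1.1e-09) and -0.47 (SE 0.071, adjusted p = 1.4e-06). Against each other NEAT1 and MALAT1 had r = 0.58, which placed MALAT1 115th among genes like NEAT1 and NEAT1 820th among genes like MALAT1.

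Most genes for paraspeckle proteins fell while NEAT1 rose. Of 40 genes listed, 29 were called down, 6 up and 5 neither, and the median LFC was -0.47 against 0.19 over all genes tested and -0.08 over the genes that averaged 1 CPM or more. Of the latter, 45.3% were called down and 34.8% up, and 38 of the 40 listed genes were at that level. Genes whose loss is known to abolish paraspeckles were among those that fell. NONO and SFPQ, which coat NEAT1 as dimers, had LFCs of -0.54 and -0.67 (SE 0.033 and 0.031). HNRNPK, which favours the long form over the short one by hindering early polyadenylation, had an LFC of -0.70 (SE 0.033). DAZAP1, HNRNPH3 and RBM14 had LFCs of -0.74, -0.61 and -0.20 (SE 0.036, 0.029 and 0.039), and the highest edgeR adjusted p of these genes was that of RBM14 (3.7e-05). Vehicle and nutlin samples did not overlap for these 6 genes other than RBM14, which was also not called when effective lengths were used as an offset (LFC -0.02, SE 0.042, adjusted p = 0.729).

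Among the other paraspeckle genes, the largest falls were those of FIGN and HNRNPR, with LFCs of -1.32 (SE 0.080) and -1.20 (SE 0.031). The largest rises among listed genes that averaged 1 CPM or more were those of CELF6, ZC3H6 and ZNF335, with LFCs of 2.18 (SE 0.41), 1.73 (SE 0.23) and 0.46 (SE 0.043). CELF6 was at 0.409 CPM in vehicle and 1.85 CPM in nutlin, where counts are few. It reached the average of 1 CPM through nutlin alone, so that its place among the largest rises depends on that filter.

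Genes listed for 3′ end processing and for the triple helix were mostly lower as well. Of 12 genes for RNase P subunits, ELAC2, which trims tRNA-like ends, and METTL16, which binds the MALAT1 triple helix, 11 were called down and 1 neither, with a median LFC of -0.45. All 12 averaged 1 CPM or more, where 45.3% of genes were called down and the median LFC was -0.08. The RNase P subunits RPP30, POP7 and RPP25 fell most, with LFCs of -1.11 (SE 0.051), -0.83 (SE 0.052) and -0.61 (SE 0.048). METTL16 had an LFC of -0.44 (SE 0.035, adjusted p = 4.1e-12).

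Of 15 nuclear speckle genes, 10 were called down, 2 up and 3 neither, with a median LFC of -0.25. All 15 averaged 1 CPM or more, where 45.3% of genes were called down and 34.8% up. The splicing factors SRSF2, SRSF7 and SRSF3 fell most, with LFCs of -1.15 (SE 0.030), -0.84 (SE 0.034) and -0.84 (SE 0.039). The kinases CLK1 and DYRK1A, which phosphorylate splicing factors, rose with LFCs of 0.48 (SE 0.038) and 0.20 (SE 0.047). The core speckle scaffold gene SON had an LFC of -0.01 (SE 0.030, adjusted p = 0.82). SRRM2, of the same list, was called down with an LFC of -0.22 (SE 0.037, edgeR adjusted p = 7.5e-06).

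Of 56 other genes tested within 500 kb of the pair, 42 averaged 1 CPM or more, and of these 17 were called up, 19 down and 6 neither, with a median LFC of -0.01. Their shares, 40.5% up and 45.2% down, were near those of all genes at that level (34.8% up and 45.3% down). FRMD8, which ends 9.25 kb before NEAT1, had an LFC of 0.58 (SE 0.045, edgeR adjusted p = 2.1e-12).

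Larger changes than those of the pair were seen among the genes within 500 kb. FOSL1, an AP-1 transcription factor, rose from 0.474 to 16.2 CPM with an LFC of 5.08 (SE 0.12), and SNX32 and TM7SF2 had LFCs of 2.42 (SE 0.066) and 2.11 (SE 0.076). FOSL1, which is among the 17 called up, reached the average of 1 CPM through nutlin alone, so that its place here depends on that filter. CDCA5 and POLA2, which act in sister chromatid cohesion and in DNA replication, fell with LFCs of -2.36 (SE 0.052) and -2.25 (SE 0.055). Between NEAT1 and MALAT1 lie 2 further genes tested, both lncRNAs below 1 CPM, named after their values were seen. LINC02736 had 2 counts in all, in 1 of 10 vehicle samples, and 81 counts in nutlin, with 4 to 13 in each sample. Its fitted LFC was 4.63 (SE 0.51, edgeR adjusted p = 3.4e-09), which rests on few counts. ENSG00000291174 had 41 counts in vehicle and 66 in nutlin and was not called (adjusted p = 0.0927).

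**Figure D5:**
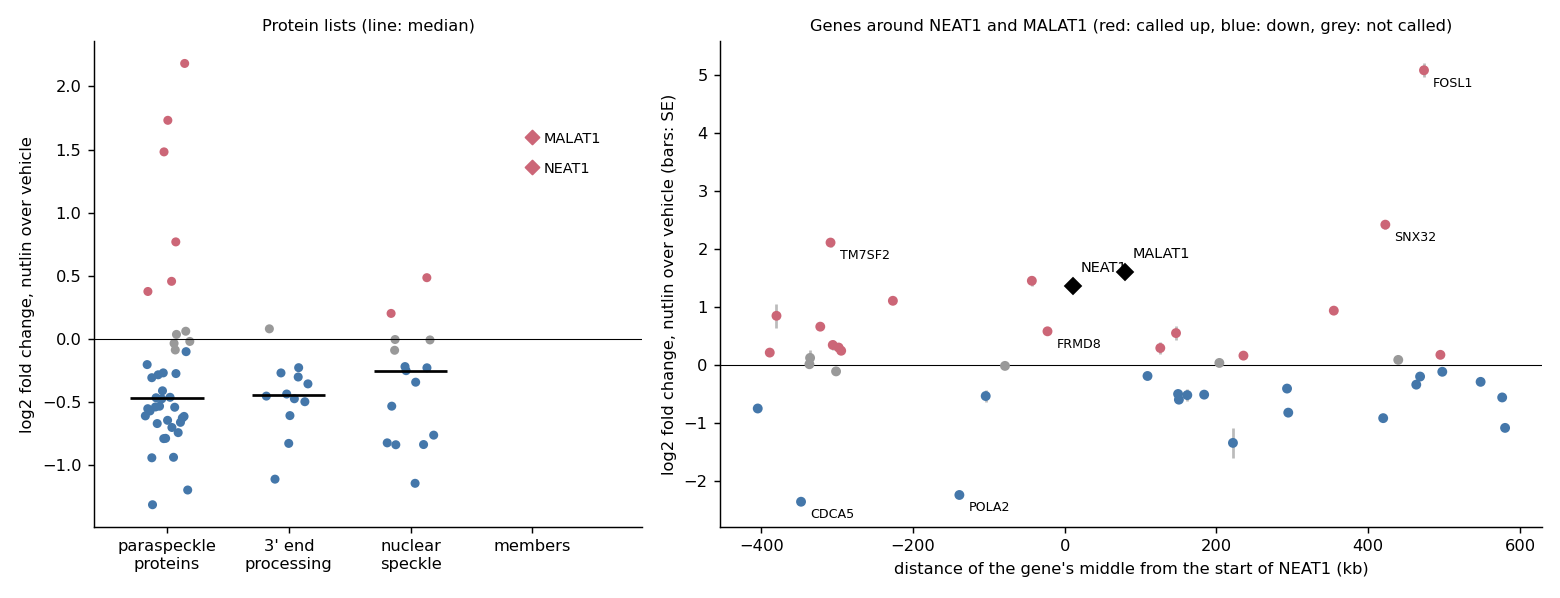
LFC between nutlin and vehicle (y axes): on the left, single genes (points) of the 3 protein lists with their medians (lines), beside NEAT1 and MALAT1; on the right, genes that averaged 1 CPM or more around the pair by distance in kb from the start of NEAT1 (x axis), with SE. Red points were called up, blue down and grey neither; 29 of 40 paraspeckle genes are blue, and the neighbours split into 17 up and 19 down.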

How the data were processed

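The authors quantified poly(A) RNA-seq reads of 20 NGP samples with kallisto 0.42.4 on transcripts of GRCh38 (Ensembl release 85) and deposited 3 kinds of values per transcript. The estimated counts deposited by the authors are not normalized. The TPM values deposited by the authors are scaled by effective length and library size. Effective lengths, in bases, were used by an offset in 1 alternative.

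Conditions were taken from the sample titles. Models were matched by identifier to GENCODE release 44, which succeeded for 191106 (96.05%), and 7862 were left out. Counts were summed per gene and rounded for tests, on genes or transcripts with at least 1 count in each condition. Of the estimated counts, 96.7% to 96.8% per vehicle sample and 95.7% to 95.9% per nutlin sample were on matched models. Tests used edgeR 4.0.16 (quasi-likelihood, TMM, condition as the only term, Benjamini-Hochberg at 5% FDR, all 20 samples) in R 4.3.3, checked on simulated data. Alternatives used DESeq2 1.42.0 and limma 3.58.1. An SE is the absolute LFC divided by the square root of the F statistic. Permutation tests were two-sided with 100000 resamples (scipy 1.17.1). Python 3.11.15, numpy 2.4.6, pandas 2.3.3 and matplotlib 3.10.9 were used for tables and plots. A depth of 14455477 to 19532971 read pairs per sample limits the precision of models with few counts, and errors of the assignment of reads to models are not seen by the tests.

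The members and the gene lists were chosen with earlier results of these data known. Named genes were MDM2, the members and their models, essential paraspeckle genes, up to 3 SDE genes per direction in the other lists and neighbours, each averaging 1 CPM or more, and the 5 genes most like each member. METTL16, SON, SRRM2, LINC02736 and ENSG00000291174 were added after their values were seen. Some genes of this rule and of the marker list are not reported here. Vehicle and nutlin share 8 replicate numbers. The correlation of deviations from the condition means within a shared number ran from -0.078 to 0.095 and exceeded 0.1 in 0 of 8, so that the numbers were not taken as pairs.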

Additional observations from a re-analysis of the deposited data

Results flagged for a closer look

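Of 168 groups of 10 samples examined for the members, their models and shares and the named genes, 13 held a sample set far apart from the rest (a gap to its neighbour of more than 0.466 of the range), where chance alone sets apart about 1 in 20 groups. NEAT1 in vehicle replicate 10 was low at 153 CPM (next 178 CPM) and at 0.0125% of all counts (next 0.0151%). Without that replicate the LFC of NEAT1 was 1.36 (SE 0.042). ENST00000544868 of MALAT1 in vehicle replicate 3 was high at 15.6 counts (next 3.93) and at 0.956% of MALAT1 counts (next 0.264%), still below every nutlin sample. CELF6 was high in vehicle replicate 11 at 1.3 CPM and was at 0 in nutlin replicate 8. In nutlin replicate 4, CLK1 was low at 88.3 CPM, MRPL49 low at 44.7 CPM and LTBP3 high at 34.1 CPM. FAU was high in nutlin replicate 6 at 428 CPM, MRPL49 high in vehicle replicate 10 at 55.2 CPM, SIPA1 low in vehicle replicate 7 at 0.284 CPM and TMEM262 high in vehicle replicate 11 at 4.22 CPM. The causes were not tested.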

How the results depend on the processing

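NEAT1 and MALAT1 were called up in every alternative run at gene level, with LFCs of 1.24 to 1.44 and 1.58 to 1.69. The ends farthest from the reported values came from the offset for effective length (1.24 and 1.69) and, for NEAT1, the filter on low counts (1.44). With a single sample left out, NEAT1 ranged from 1.35 to 1.39, MALAT1 from 1.58 to 1.62, the difference in long-form share from 0.34 to 0.97 percentage points and the difference in log2 ratio from -0.26 to -0.23. No scaling moved the median LFC of all genes by more than 0.077. The long-form share passed its test in TPM alone (0.62 percentage points), and the correlation in vehicle passed on log2 TPM (r = 0.80). With a minimum count of 10, 1 gene for 3′ end processing and 4 nuclear speckle genes were called up, against 0 and 2. The LFC of ENST00000610851 turned from -0.62 to 0.051 with limma voom and to 0.13 with the replicate block, and that of ENST00000620465 from 0.0024 to -0.043 with limma voom, none of them called. The replicate block on the 16 samples with shared numbers gave LFCs of 1.33 for NEAT1 and 1.58 for MALAT1, and called 9413 transcripts up against 12560 for the same samples without it and 16074 reported, while no shared number correlated above 0.1. The block changed no call of a member at gene level. The causes were not tested. Few counts limit the models near 0.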
